A study of Nannospalax ehrenbergi and Mus musculus with 25 samples.

Results

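The genes described here are 10 core components of the circadian clock, namely Clock, Arntl, Per1, Per2, Per3, Cry1, Cry2, Nr1d1, Nr1d2 and Dbp, chosen by name and followed through all 25 RNA-seq libraries of the series. All 10 had a row among the 47593 genes listed for mouse, and 9 had one among the 27988 genes listed for the blind mole rat Spalax. Per3 was therefore described in mouse only and was not analysed here in Spalax. The libraries came from neck muscle and tumor tissue after injection of 3-methylcholanthrene (3MCA), a carcinogen that induces sarcomas, under the skin of the left side of the neck.

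Spalax is a subterranean rodent caught in the wild. Its 16 libraries comprised 4 from untreated females (control), 4 from the injected side of 3 males and 1 female that had grown no tumor 18 or 30 months after 1 mg 3MCA in 500 µl (tolerant), and 8 from 4 tumor-bearing animals given the same dose. Each tumor-bearing animal gave 1 library of the injected side (IS), which was the tumor, and 1 of the uninjected side (UIS). Animals 600 and 976, both female, had a granuloma at 14 and 16 months, and animals 2240 (female, 18 months) and 2230 (male, 30 months) had a fibrosarcoma. Treated Spalax were estimated at 2 to more than 10 years of age. The mice were C57BL/6 males aged 3 to 4 months. They gave 3 control libraries (M1, M2, M5) and 3 pairs of UIS and IS libraries from animals 1019, 1023 and 512, in which a fibrosarcoma was sampled 14, 12 and 11 weeks after 200 µg 3MCA in 200 µl.

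The clock is a feedback loop within each cell. Clock and Arntl (Bmal1) pair as a transcription factor that switches on the Per and Cry genes, and the PER and CRY proteins accumulate and repress that same pair. A second loop runs through Nr1d1 and Nr1d2 (Rev-erb alpha and beta), nuclear receptors that the pair switches on and that repress Arntl, opposed by the Ror receptors. Dbp is an output gene driven directly by the pair, so in a running clock its mRNA is high at a time of day when that of Arntl is low. Skeletal muscle has such a clock of its own.

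The hour at which tissue was taken is not given in the sources used here. Untreated Spalax were biopsied alive under isoflurane and a biopsy of similar size was taken from tolerant animals, whereas tumor-bearing animals and control mice were sampled at death. Control and tolerant libraries carry dual indexes and all libraries of tumor-bearing animals single ones, so index type and the group cannot be told apart in any comparison of UIS with control or tolerant muscle. The UIS and IS libraries of 1 animal share the animal, the operation and the index type. Each animal gave at most 1 library per tissue, so p-values reflect the spread between animals.

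Depth ranged from 17025447 to 23386729 reads in Spalax and from 22143060 to 31179183 in mouse, and the fewest reads behind any value of a clock gene were 54 in Spalax (Arntl) and 47 in mouse (Dbp). The unit throughout is the normalised value, a read count divided by 1 size factor per library. Muscle markers matched the labels, since the summed level of 7 muscle genes was 752867 to 2704386 in the 12 Spalax muscle libraries against 363 to 5832 in the 4 IS libraries. In mouse the 10 muscle genes summed to 1089849 to 4028413 in muscle and 163 to 55928 in IS. IS tissue therefore holds almost no muscle mRNA, and in such bulk tissue fewer cells of a type and less RNA per cell cannot be told apart. Tolerant 2251 had the lowest muscle sum of the 12 (752867), a fibroblast sum of 184469 against 7251 to 41662 in the 11 others, and a macrophage and leukocyte sum of 10607 against 839 to 1961 in controls.

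In the mouse reference annotation (GRCm38, GENCODE vM21) the genes lie on 8 chromosomes. Clock is at chr5:76209868-76304792, Arntl at chr7:113207465-113314126 and Dbp at chr7:45705088-45710203. The period genes are Per1 at chr11:69095217-69109960, Per2 at chr1:91415982-91459324 and Per3 at chr4:151003652-151044665, and the cryptochromes are Cry1 at chr10:85131700-85185064 and Cry2 at chr2:92403646-92434043. Nr1d1 is at chr11:98767932-98775333 and Nr1d2 at chr14:18204054-18239127. Exons of the opposite strand overlap 4 of them. Sphk2, a sphingosine kinase, covers 18.0% of the exon bases of Dbp, Thra, a thyroid hormone receptor, covers 8.55% of Nr1d1, the noncoding D930015M05Rik 4.67% of Cry2 and Gm45355 0.439% of Arntl. The libraries were strand-specific, but the strand setting of the read counting is not given in the sources used here, so a share of these reads could come from the other strand.

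Per kilobase of exon, the order of the levels in control mice was led by Nr1d2 at 1061 ± 192 (SD, n = 3), followed by Dbp at 657 ± 482, Nr1d1 at 529.6 ± 132 and Per1 at 293 ± 73.4. Per2 (213 ± 38.5), Per3 (213 ± 72.2), Cry2 (194 ± 10.6) and Cry1 (169 ± 10.0) followed, and the activators were lowest, with Clock at 67.1 ± 28.9 and Arntl at 23.3 ± 20.1. The ranges of neighbours in this order overlapped except between Nr1d1 and Per1, between Cry2 and Cry1, and between Cry1 and Clock. Dbp spanned 192 to 1154 per kilobase in these 3 mice, from below the mean of Cry2 to above that of Nr1d2.

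**Figure D1:**
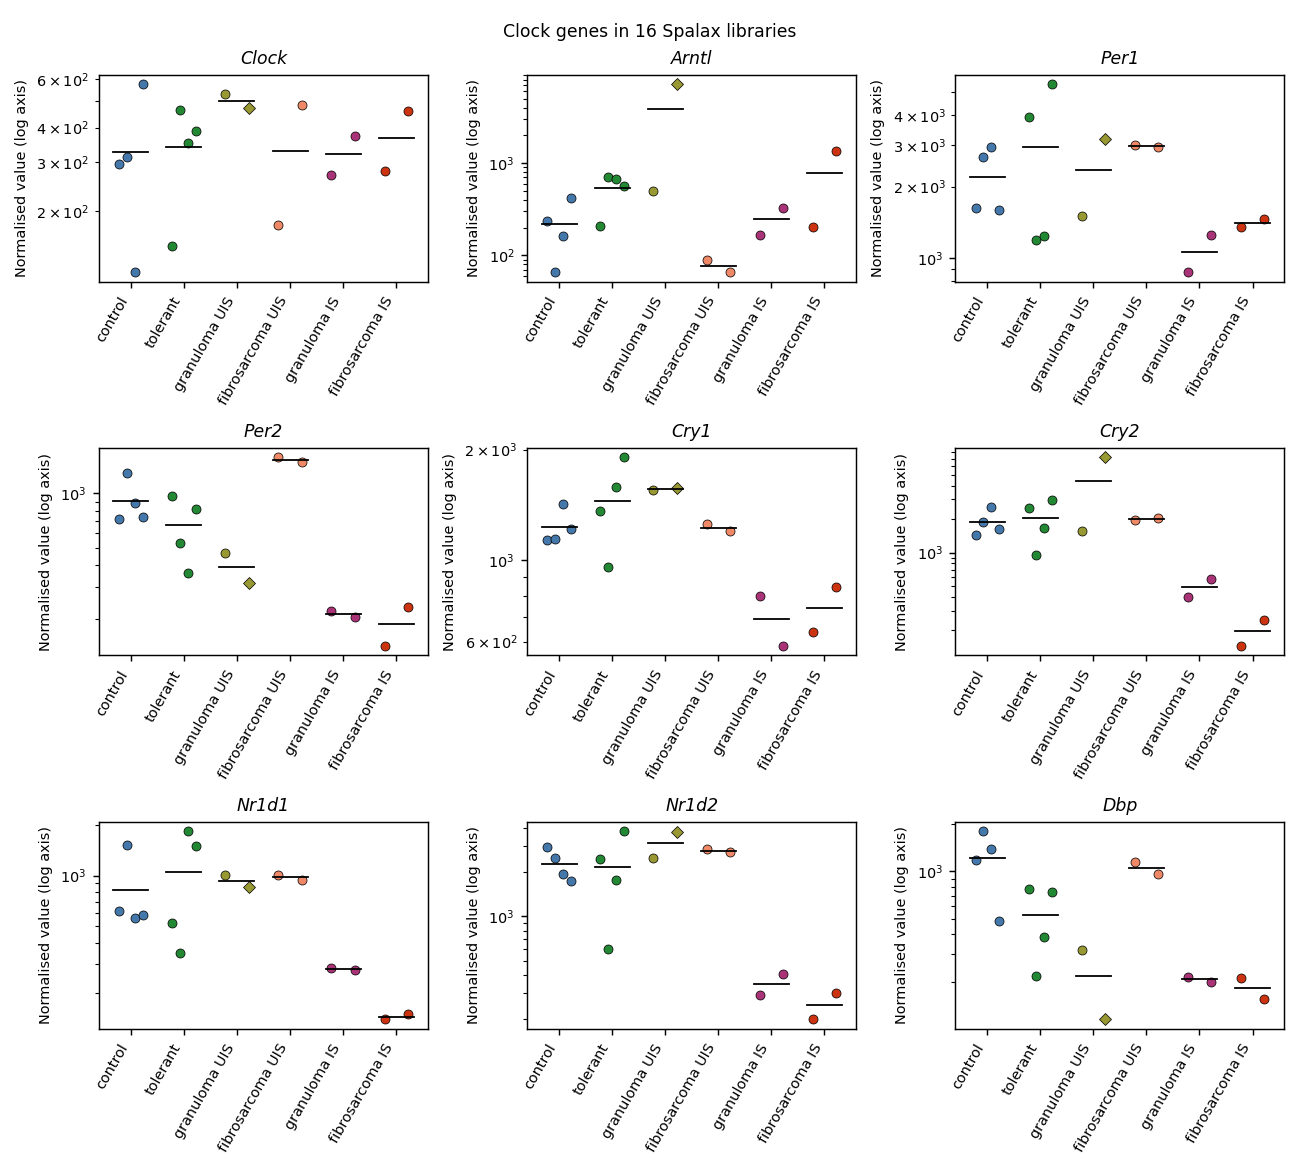
Normalised value (log axis) of the 9 clock genes with a row in the Spalax table, 1 point per library, a bar at each group mean and diamonds for granuloma UIS 976, where Arntl reached 7234 and Cry2 7154. For Nr1d1, Nr1d2, Cry2, Cry1 and Per2 all 4 IS libraries lie below every muscle library. The share of all genes that do so was not counted. With scaling to total reads Cry1 and Per2 were each lower in IS than in UIS in 3 of 4 animals.

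In each species 1 uninjected muscle library stood apart in the size of its clock gene values. In Spalax granuloma UIS 976 Arntl was 7234 against 65.5 to 712 in the 11 other muscle libraries, 30.9 times their median, and Cry2 was 7154 against 946 to 2981. In that library Dbp (115 against 217 to 1805) and Per2 (316 against 362 to 1584) lay below all others. In mouse UIS 512 Arntl was 2601 against 60.3 to 939 in the 5 other muscle libraries, Cry2 9456 against 900.3 to 1289, Clock 2596 against 480.2 to 1248 and Per1 5737 against 1190.3 to 1995. Dbp there was 67.7 against 197 to 3454. Arntl and Cry2 were thus above, and Dbp below, every other muscle library of the species in both animals, while Cry1 lay within the range of the others in each (1569.9 in 976 and 551 in 512).

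The same libraries were set apart in clock genes beyond the 10. Rora, a nuclear receptor that activates Arntl, was 2990.3 in 976 against 31.2 to 216 in the other Spalax muscle libraries and 14169 in 512 against 1898 to 2786 in the other mouse libraries. Nfil3, a repressor of the genes that Dbp activates, was 11038 in 976 against 599 to 2332, but 1047 in 512 lay within the range of 459.6 to 1237. Bhlhe40, a repressor of the Clock and Arntl pair, was below all others in both (2142 against 3355 to 7909.5, and 802 against 2117 to 3992). The muscle marker sum was 785189 in 976, in the lower part of the Spalax muscle range, and 4028413 in 512, the highest in mouse. The labels give animal number 976 in the title of that library and 979 in its read-file name. Counted by genes at the top or bottom of the muscle libraries, other libraries reached similar numbers, with 4 of 9 in 976 and 5 of 9 in tolerant 2251, and with 6 of 10 in 512 and 7 of 10 in control M2. Differences in Arntl, Dbp and Cry2 that include 976 or 512 are given also without that library.

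**Figure D2:**
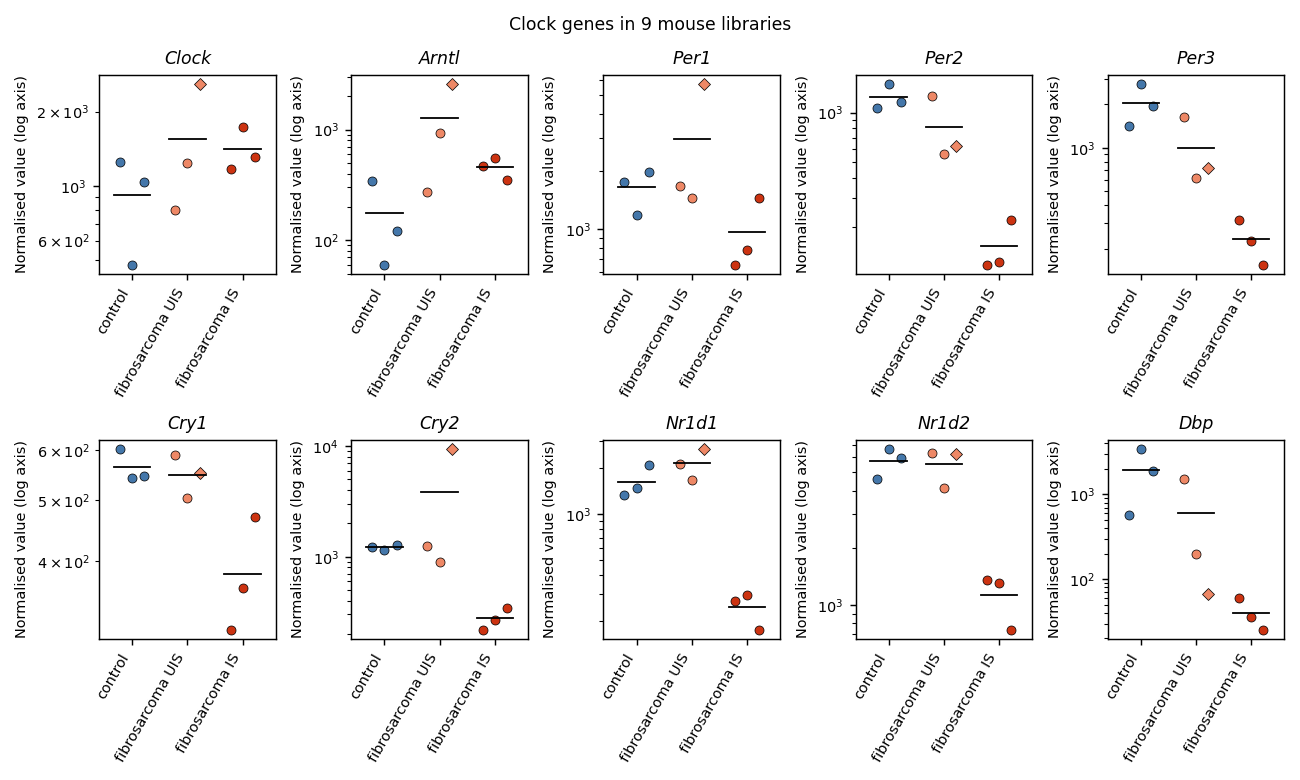
Normalised value (log axis) of the 10 clock genes in the 9 mouse libraries, 1 point per library, a bar at each group mean and diamonds for UIS 512. Nr1d1, Nr1d2, Per2, Per3, Cry1, Cry2 and Dbp are lower in all 3 IS libraries than in all 6 muscle libraries. The share of all genes that are so was not counted. With scaling to total reads Cry1 was lower in IS than in UIS in 0 of 3 mice.

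Untreated muscle was examined first. Arntl in control Spalax was 234, 65.6, 163 and 418, and Dbp in the same 4 animals was 1185, 1805, 1381 and 488. The animal with the least Arntl (1075) had the most Dbp, and the animal with the most Arntl (6038) had the least Dbp. In control mice Arntl was 346, 60.3 and 119.9 and Dbp was 574, 3454 and 1873 in M1, M2 and M5, in exactly opposite order. The log2 difference of Dbp minus Arntl, which is high when the output gene is high and the activator low, ran from 0.22 to 4.76 in control Spalax and from 0.73 to 5.82 in control mice. Animals of the same untreated group therefore differed by more than 4 log2 units in this difference.

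In tolerant Spalax Arntl was 712, 678, 210.2 and 563 in animals 2251, 2261, 2218 and 2375, and 3 of the 4 lay above all controls. Dbp was 217, 384, 772 and 743 in the same order, and these values overlapped the control range through the control value of 488. The log2 difference between tolerant and control was 1.44 (SE 0.57) for Arntl and -1.23 (SE 0.49) for Dbp. Neither passed the test, with a limma adjusted p of 0.918 for each and unadjusted p of 0.0301 and 0.0313. Of the 9 clock genes tested in this comparison 0 were called by limma, 2 had an unadjusted p under 0.05, and edgeR and DESeq2 each called 0. Over all 14020 genes limma and edgeR called 0 and DESeq2 called 60, and 733 had an unadjusted limma p under 0.05. Leaving out each library in turn kept Arntl between 0.95 and 1.84 and Dbp between -1.61 and -0.86.

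The other 7 genes did not separate tolerant from control muscle. Per1 was 1197 and 1244 in the 18-month animals and 3911 and 5409 in the 30-month animals, on both sides of the control range of 1588 to 2923. Nr1d1 in tolerant animals was 347, 1841, 519.6 and 1509, spanning the controls at 617, 1523, 561 and 586. Clock was 149 to 464 in tolerant and 119.7 to 575 in control muscle. Cry1 (960.1 to 1903 against 1134 to 1422), Cry2 (946 to 2981 against 1442 to 2561) and Nr1d2 (602 to 3826 against 1737 to 2966) each had the wider range in tolerant animals. Per2 was 362 to 972 in tolerant and 720.0 to 1307 in control muscle. In Per1, Cry1, Cry2, Nr1d1 and Nr1d2 the lowest value of all Spalax muscle libraries belonged to animal 2251, whose fibroblast markers were raised. The part of that tissue in these values was not tested.

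Uninjected muscle of tumor-bearing Spalax is described here by tumor type. Arntl was 499 and 7234 in the granuloma animals 600 and 976 and 65.5 and 89.6 in the fibrosarcoma animals 2240 and 2230. Dbp was 316 and 115 in the former and 969 and 1149 in the latter, and Per2 was 464 and 316 against 1503 and 1584. In all 3 genes the values of the 2 tumor types did not overlap, with Arntl high where Dbp and Per2 were low. Cry1 did not overlap either, at 1548 and 1569.9 against 1201 and 1252. Clock, Per1, Cry2, Nr1d1 and Nr1d2 overlapped between the types. The share of all genes that split in this way was not counted. With 2 animals of each type, such a lack of overlap is common even between groups that do not differ. This split is therefore a description and was not tested on its own.

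Against control, UIS differed by 1.08 (SE 1.31) in Arntl and by -1.28 (SE 0.70) in Dbp on the log2 scale, with limma adjusted p of 0.682 and 0.377. Of the 9 clock genes 0 were called by limma and 0 by edgeR, DESeq2 called 0 of 8 and gave Arntl no adjusted p, 0 had an unadjusted p under 0.05 in limma, and the background was 0% of 13909 genes called and 2315 at an unadjusted p under 0.05. Without granuloma UIS 976 the Arntl difference turned to -0.33 and that of Dbp was -0.63, while with all libraries edgeR and DESeq2 gave Arntl 3.19 and 3.21. Between UIS and tolerant muscle 0 of 9 clock genes were called by limma and edgeR and 0 had an unadjusted p under 0.05 in limma, against a background of 0.00713% called. DESeq2 called 0 of 8 there and again gave Arntl no adjusted p, and its Arntl difference was 1.87 where that of limma was -0.35 and, without 976, -1.76.

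In mouse the values of untreated and uninjected muscle differed in Arntl, Dbp and Per3, without passing the limma test. Arntl in UIS was 273, 939 and 2601 in animals 1019, 1023 and 512 against 60.3 to 346 in controls, with a log2 difference of 2.68 (SE 0.90, limma adjusted p = 0.441). Dbp was 1541, 197 and 67.7 against 574 to 3454, a difference of -2.49 (SE 1.14, limma adjusted p = 0.471). Per3 was 1643, 619.8 and 724 against 1409.7 to 2785, a difference of -1.12 (SE 0.43, limma adjusted p = 0.448). Animal 1019 lay within the control range for all 3 genes, and animals 1023 and 512 lay outside it. Without UIS 512 the differences were 1.89 for Arntl, -1.49 for Dbp and -0.96 for Per3. Of 10 clock genes 0 were called by limma and 0 by edgeR, 2 (Arntl and Per3) had an unadjusted p under 0.05 and 1 (Arntl) was called by DESeq2, which gave Cry2 no adjusted p, against a limma background of 0% of 14792 genes called and 1621 at an unadjusted p under 0.05. Fat markers differed between these groups as well, with sums of 121639 to 186855 in control and 7061 to 88070.1 in UIS, and their part in these values was not tested.

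**Figure D3:**
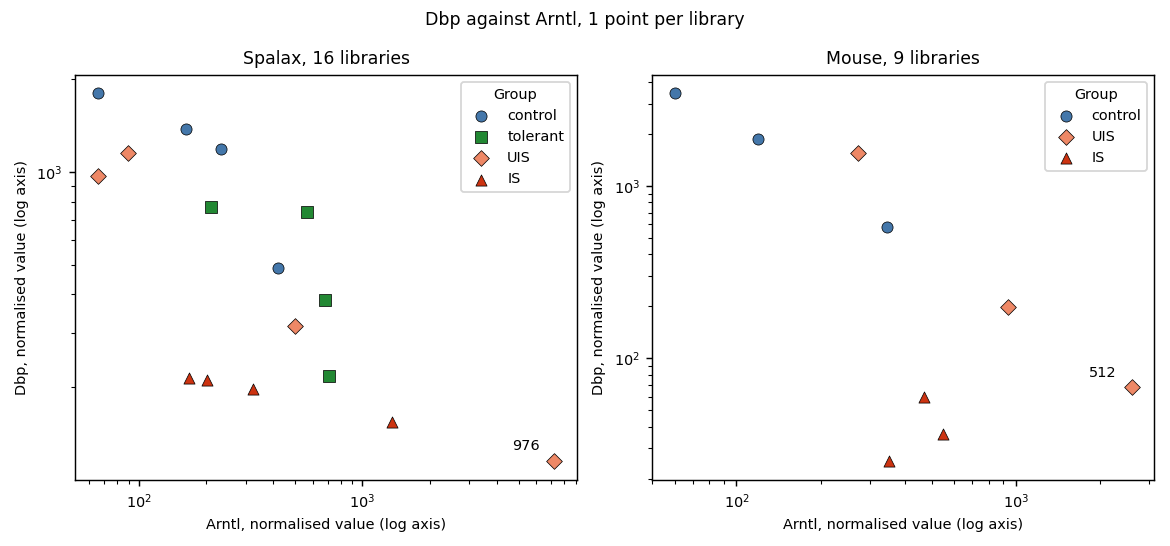
Dbp against Arntl, both as normalised values on log axes, for 16 Spalax libraries (left) and 9 mouse libraries (right), 1 point per library. Muscle libraries run from high Dbp with low Arntl to low Dbp with high Arntl, ending at 976 and 512, and the IS libraries sit at low Dbp (154 to 215 in Spalax, 25.3 to 59.4 in mouse).

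The opposite order of Arntl and Dbp was then examined across all muscle libraries, 1 per animal. Over 12 Spalax libraries the Pearson r of Arntl with Dbp was -0.90 (permutation p = 8.00e-05, adjusted 0.000680; Spearman rho -0.85, permutation p = 0.000840, adjusted 0.00714). With Per2 it was also -0.90 (permutation p = 1.00e-05, the smallest these permutations can give, adjusted 0.000170; rho -0.90, permutation p = 0.000170, adjusted 0.00289). Without the 2 libraries farthest from the median of Arntl (granuloma UIS 976 and fibrosarcoma UIS 2240) both were -0.87. Within the 8 dual-index libraries, control and tolerant only, r was -0.88 with Dbp (exact permutation p = 0.00469) and -0.83 with Per2 (exact permutation p = 0.0102). The 4 single-index muscle libraries were too few for a value of their own.

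In mouse the corresponding r over 6 muscle libraries was -0.98 with Dbp (exact permutation p = 0.00139, adjusted 0.00787) and rho was -1.0 (exact permutation p = 0.00278, adjusted 0.0157). With Per3 r was -0.94 (exact permutation p = 0.00833, adjusted 0.0354) and rho -0.94 (exact permutation p = 0.0167, adjusted 0.0708). With Per2 r was -0.90 and with Clock 0.90, each with an exact permutation p of 0.0194 that missed the threshold after adjustment (0.0551). Leaving out control M2 and UIS 512, the libraries farthest from the median, gave -0.94 for Dbp, -0.95 for Per3, -0.85 for Per2 and 0.46 for Clock over 4 libraries. With scaling to total reads r with Per2 was -0.91 and passed (exact permutation p = 0.00278, adjusted 0.00944), and r with Clock was 0.84 and did not (exact permutation p = 0.0306, adjusted 0.0776). Each index type held only 3 mouse muscle libraries, all of 1 group, so no value within them can be given.

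Adjustment covered the 17 relations of Arntl with the other clock genes in both species, and 4 of these passed for Pearson's r, namely Dbp and Per2 in Spalax and Dbp and Per3 in mouse. The permutation test was not run on other genes, so the share of all genes that would pass was not counted. Nr1d1 (-0.08 in Spalax, 0.49 in mouse), Nr1d2 (-0.02 and -0.37) and Cry1 (0.41 and -0.15) did not pass in either species, although r with Nr1d2 in mouse moved to -0.86 with scaling to total reads (exact permutation p = 0.0319, adjusted 0.0776). The r with Cry2 was 0.45 in Spalax and 0.65 in mouse, neither passed, and it rested on the 2 libraries of each species farthest from the median of Arntl, since it turned to -0.33 and -0.90 without them. The r with Per1 in mouse likewise went from 0.73 to -0.97.

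Ranked among all 14434 Spalax genes that reached the level filter, Dbp had the 4th lowest r with Arntl over the 12 muscle libraries. Counted from the highest r with Arntl, Per2 stood at rank 14429. Tef, a transcription factor of the same family as Dbp, had the 5th highest r with Dbp (0.91), behind Nmrk2 (0.93), Asmtl (0.92), Rnf13 (0.92) and Sbk1 (0.91), and Per2 stood at rank 37 (0.84). The genes most like Arntl were Rpp38 (0.95), Map3k8, LOC103749640 and Chfr (0.90 each) and Cog3 (0.89). Besides Dbp those least like it were LOC103725554 (-0.93), Cactin (-0.91), Mcur1 and Ywhab (-0.90 each). Those least like Dbp were LOC103725483 and Cog3 (-0.93 each), LOC103740802 (-0.92), Mms19 (-0.91) and Ssfa2 (-0.90).

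Over the 6 mouse muscle libraries many genes reached extreme values of r, as few points allow. Kat2b, an acetyltransferase, and Fosl2 (1.00 each), with Sorl1, Lrrc30 and Midn (0.99 each), were most like Arntl among 14791 genes. Gm5436 (-1.0), Nmb, Msx1, Rac3 and Arsi (-0.99 each) were least like it. Counted from the highest r with Arntl, Dbp stood at rank 14777 (-0.98), Per3 at 14657 (-0.94) and Per2 at 14465 (-0.90). Pdlim4 (1.00), Arsi, Wdr82, Bmp1 and Rasgrp3 (0.99 each) were most like Dbp, and Ccar1, Arhgap26, Lrrc30 and Kat2b (-0.99 each) with 8430408G22Rik (-0.98) least. Per3 (rank 149, r 0.94), Per2 (rank 184, r 0.93) and Usp2, a ubiquitin protease with a clock-driven mRNA (rank 429, r 0.90), were among the clock genes nearest to Dbp in mouse. These values of r carry no test, and the libraries of each species share their normalisation.

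The spread between animals was wider for Arntl and Dbp than for most genes. With scaling to total reads this did not hold for Dbp in tolerant Spalax (SD 0.53 against a median of 0.54). The Spalax UIS libraries pool 2 granuloma and 2 fibrosarcoma animals, which did not overlap in Arntl, Dbp, Per2 or Cry1, so their SD includes that split. The SD of Arntl on the log2 scale was 1.11 in control Spalax, 0.82 in tolerant and 3.10 in UIS, against medians over all expressed genes of 0.35, 0.49 and 0.45. Dbp had SDs of 0.82, 0.87 and 1.54 in these groups. In mouse Arntl had an SD of 1.26 in control and 1.63 in UIS, and Dbp 1.31 and 2.28, against medians of 0.31 and 0.53. In control mice 98.2% of genes had a smaller SD than Arntl and 98.4% a smaller SD than Dbp. At the other end, Cry1 had an SD of 0.15, 0.42 and 0.20 in the Spalax groups and of 0.08 and 0.11 in the mouse groups, below the median in all 5. Its values in mouse muscle lay between 504 and 602 in all 6 libraries.

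Of the clock genes tested, 7 of 9 exceeded the median SD in control Spalax, 8 of 9 in tolerant (5 of 9 after scaling to total reads), 6 of 9 in UIS, 6 of 10 in control mice and 7 of 10 in mouse UIS. Nr1d1 differed between groups in this respect as a description, with an SD of 0.69 in control, 1.17 in tolerant and 0.12 in UIS of Spalax.

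Tumor tissue was compared with uninjected muscle of the same animals, taken at the same operation. Both Rev-erb genes, both cryptochromes, Per1 and Per2 were lower in the tumor in all 7 animals of both species, and Per3 in all 3 mice, although with scaling to total reads Cry1 was lower in 3 of 7 and Per2 in 6 of 7, while Nr1d1, Nr1d2, Cry2 and Per1 were lower in 7 of 7. Dbp was lower in 6 of 7, the exception being animal 976, while Arntl and Clock were lower in 4 of 7. With scaling to total reads Dbp was lower in 5 of 7, Arntl in 3 of 7 and Clock in 1 of 7. In Spalax 6 of the 9 clock genes were lower in IS in every one of the 4 pairs, against a background of 30.9% of 14431 genes, and in mouse 8 of 10 were lower in every one of the 3 pairs, against 33.5% of 15220 genes. With scaling to total reads these counts were 4 of 9 against 17.0% of genes in Spalax and 7 of 10 against 15.7% in mouse.

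**Figure D4:**
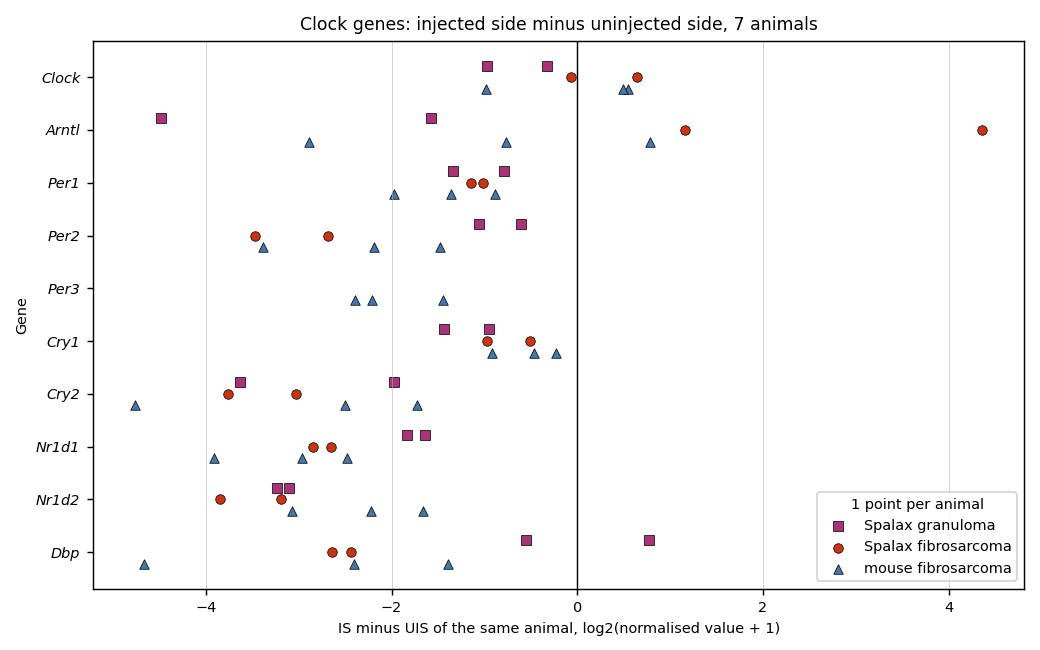
Difference between IS and UIS of the same animal on the log2(normalised value + 1) scale, 1 point per animal, for the 10 clock genes (Per3 in mouse only), with points left of 0 lower in the tumor. Nr1d1, Nr1d2, Cry2 and Per2 lie left of 0 in all 7 animals (Per2 in 6 of 7 with scaling to total reads), and Arntl runs from -4.48 to 4.36.

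Nr1d2 fell in every animal. In Spalax UIS it was 2509.6, 3791, 2742 and 2862 in animals 600, 976, 2240 and 2230, and in their tumors 290.3, 402, 299 and 198. In mouse it was 6339, 4123 and 6215 in UIS and 1359, 1301 and 739 in IS of 1019, 1023 and 512. The groups did not overlap in either species. The limma fit over the 4 UIS and 4 IS libraries of Spalax held tumor type but not the animal, and that in mouse held the side alone. The log2 difference of Nr1d2 was -3.35 (SE 0.24, limma adjusted p = 3.12e-05) in Spalax and -2.32 (SE 0.33, limma adjusted p = 0.00346) in mouse. The fits of IS against UIS below likewise left out the animal unless a replicate block is named.

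Nr1d1 fell likewise. Spalax UIS held 1005, 852, 946 and 1015 and IS 282, 273, 150 and 139.7 in the same order of animals, for a difference of -2.24 (SE 0.26, limma adjusted p = 0.000266). Mouse UIS held 2119, 1665 and 2659 and IS 272, 298 and 176, a difference of -3.11 (SE 0.31, limma adjusted p = 0.00157). Both fibrosarcoma values in Spalax were below both granuloma values, yet the difference of the 2 tumor types in this change was not called (-1.02, SE 0.41, limma adjusted p = 0.946). Thra, whose exons overlap Nr1d1, was at 678 to 1821 in mouse.

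Of the Per and Cry genes, Cry2 had the largest mean differences from UIS in both species with all libraries. In Spalax UIS it was 1568, 7154, 2034 and 1972 and in IS 400.0, 578, 248 and 145, a difference of -3.09 (SE 0.46, limma adjusted p = 0.000837). In mouse UIS it was 1238, 900.3 and 9456 and in IS 218, 269.9 and 347, a difference of -3.0 (SE 0.86, limma adjusted p = 0.0302). The groups did not overlap, but the highest UIS value in each species came from the library that stood apart. Without UIS 976 the Spalax difference was -2.72 (limma adjusted p = 0.00158) and without UIS 512 that of mouse was -1.95 (limma adjusted p = 0.00736), smaller than that of Per2 without the same library (-2.49), whereas leaving out any 1 of the 3 mouse IS libraries lost the mouse call, with adjusted p up to 0.0844 by limma.

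Per2 fell from 464, 316, 1503 and 1584 in Spalax UIS to 222, 206, 234 and 142 in IS, a difference of -1.96 (SE 0.46, limma adjusted p = 0.00811). In mouse it fell from 1254, 562 and 622 to 119, 123 and 222, a difference of -2.35 (SE 0.43, limma adjusted p = 0.00717). The drop did not follow the UIS level in mouse, being -1.48 in 512 (UIS 622) and -2.19 in 1023 (UIS 562). In Spalax, IS values were more alike (142 to 234) than UIS values. The drop there, which is itself taken from the UIS value, was larger where UIS was higher, from -0.61 to -3.47 in single animals. The 2 tumor types of Spalax differed by -2.24 (SE 0.53) in this change, with an unadjusted p of 0.00351 and a limma adjusted p of 0.946. Per3 in mouse fell from 1643, 619.8 and 724 to 314, 226 and 155, a difference of -2.02 (SE 0.46, limma adjusted p = 0.0143).

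Per1 and Cry1 moved less. Per1 was 1507, 3170.5, 2939.9 and 2979.8 in Spalax UIS and 871, 1254, 1461 and 1349 in IS, a difference of -1.07 (SE 0.26, limma adjusted p = 0.00925). In mouse it was 1679.6, 1448 and 5737 against 653, 780.0 and 1460.1, which overlapped, a difference of -1.41 (SE 0.59) that missed the threshold (limma adjusted p = 0.0932) and was -0.78 without UIS 512. Cry1 was 1201 to 1569.9 in Spalax UIS and 584 to 846 in IS, a difference of -0.96 (SE 0.21, limma adjusted p = 0.00526). In mouse it was 504 to 589 against 312 to 470.0, without overlap, and its difference of -0.54 (SE 0.26) was not called (limma adjusted p = 0.128). Scaling to total reads moved the median of all genes by 0.77 in this Spalax comparison, and on that scale Per1 (-0.30) and Cry1 (-0.19) lost their calls, with limma adjusted p of 0.369 and 0.437. In mouse the same scaling moved the median by 1.06, the Cry1 difference turned to 0.53, Clock was called higher (1.09, limma adjusted p = 0.0403), and Cry2 (-1.93) and Per3 (-0.95) lost their calls, with limma adjusted p of 0.0657 and 0.136.

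Dbp in the tumors was low and even, at 215, 198, 154 and 211 in Spalax and 59.4, 36.2 and 25.3 in mouse. Because UIS levels varied widely (316, 115, 969 and 1149, and 1541, 197 and 67.7), its differences of -1.22 (SE 0.57) in Spalax and -2.82 (SE 1.11) in mouse were not called, with limma adjusted p of 0.108 and 0.0779. Without UIS 976 the Spalax difference was -1.77 (limma adjusted p = 0.0112) and without UIS 512 the mouse difference was -3.83 (limma adjusted p = 0.0274). These libraries held the lowest UIS values of Dbp (115 and 67.7), so leaving them out enlarged the drop. Of the fits that left out 1 library, only these called Dbp, 1 of 8 in Spalax and 1 of 6 in mouse. In the others the limma adjusted p reached 0.276 and 0.165. With the animal as a replicate block, mouse Dbp was called (limma adjusted p = 0.0330) and so was mouse Per1 (limma adjusted p = 0.0210).

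The activators gave no common direction. Clock was 178 to 528 in Spalax UIS and 270.0 to 458 in IS, and 798 to 2596 against 1171 to 1731 in mouse, overlapping in both. Arntl went from 499 to 168 and from 7234 to 324 in the granuloma animals, and from 65.5 to 1360.4 and from 89.6 to 201 in the fibrosarcoma animals. In mouse it went from 273 to 471, from 939 to 548 and from 2601 to 351. The differences were -3.02 (SE 1.26, limma adjusted p = 0.134) in granuloma, 2.76 (SE 0.98, limma adjusted p = 0.0902) in Spalax fibrosarcoma and -0.96 (SE 0.77, limma adjusted p = 0.343) in mouse. Without UIS 976 the granuloma difference was -1.10, and without UIS 512 that of mouse was -0.17. IS values lay between 168 and 1360.4 in Spalax and between 351 and 548 in mouse, inside the UIS ranges of 65.5 to 7234 and 273 to 2601.

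Counted by comparison, limma called 6 of 9 clock genes lower in Spalax tumors of both types together (Per1, Per2, Cry1, Cry2, Nr1d1 and Nr1d2), where 25.9% of 14431 genes were called lower and 51.4% in either direction, and 0 higher. The median log2 difference of the 9 was -1.22, against 0.01 over all genes. In mouse 5 of 10 were called lower (Per2, Per3, Cry2, Nr1d1 and Nr1d2), where 22.3% of 15220 genes were called lower and 45.1% in either direction, and the median was -2.17 against 0.11. With the animal as a replicate block the mouse count was 7, where 6707 of 15220 genes were called in either direction. With 1 library left out the Spalax count was 6 to 7 (7 without UIS 976), beside 6104 to 7642 of all genes. The mouse count was then 4 to 6 (6 without UIS 512), beside 4238 to 7023 of all genes. Scaling to total reads lost the calls of Per1 and Cry1 in Spalax and of Cry2 and Per3 in mouse. Over all genes that scaling called 8612 of 14431 in Spalax and 9250 of 15220 in mouse.

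Taken by tumor type, Spalax fibrosarcoma had 6 of 9 clock genes called lower (Per1, Per2, Cry2, Nr1d1, Nr1d2 and Dbp) beside 19.0% of 14696 genes called lower and 36.3% in either direction, with a median of -2.54 against 0.03. Dbp there fell by 2.54 (SE 0.30, limma adjusted p = 0.00760) on the log2 scale. Without either fibrosarcoma UIS library, 2240 or 2230, 0 of 14696 genes remained called in this comparison of 2 against 2 libraries. Granuloma had 2 of 9 called lower (Nr1d1 at -1.73, SE 0.36, limma adjusted p = 0.0267, and Nr1d2 at -3.17, SE 0.39, limma adjusted p = 0.00925) beside 12.6% of 14735 genes called lower and 24.3% in either direction, with a median of -1.19 against -0.01. With the animal as a replicate block the granuloma count was 4, with Arntl and Cry2 added. Without UIS 976 it was 1, and without either IS library, 600 or 976, it was 0. Nr1d1 was called in 0 of the 4 fits that left out a granuloma library.

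Neither test of a difference between these changes called a clock gene. Between Spalax and mouse fibrosarcoma 0 of 9 were called by limma and 0 by edgeR beside 4.55% of 12816 shared genes (2.25% higher and 2.29% lower in Spalax), with 2 at an unadjusted p under 0.05, as were 2911 of all genes, and 1 (Arntl) called by DESeq2. The Arntl change differed by 3.72 (SE 1.36, limma adjusted p = 0.148), and by 2.93 without UIS 512. Between Spalax fibrosarcoma and granuloma 0 of 9 were called by limma and edgeR, beside a background of 0% of 15584 genes, with 4 at an unadjusted p under 0.05 (Arntl, Per2, Nr1d1 and Dbp), as were 766 of all genes, and 1 (Arntl) called by DESeq2. The Arntl change differed there by 5.78 (SE 1.84, limma adjusted p = 0.946), and by 3.85 without UIS 976.

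Marker genes moved strongly in the same comparisons. In Spalax tumors 7 of 7 muscle genes tested were called lower, and 4 of 6 fibroblast, 5 of 5 macrophage and leukocyte and 3 of 4 proliferation genes higher. In mouse 9 of 10 muscle genes were called lower, and 4 of 6 fibroblast, 4 of 6 macrophage and leukocyte and 4 of 4 proliferation genes higher. Fat genes were called lower in 2 of 3 tested in Spalax and 5 of 5 in mouse, with sums of 57.8 to 567 in Spalax IS against 3448 to 33305 in UIS and of 255 to 818 against 7061 to 88070.1 in mouse. Fibroblast sums were 112895 to 1835331 in Spalax IS against 13451 to 39843 in UIS, and 140987 to 166614 against 4011 to 28571 in mouse. The part of this exchange of tissue in the clock gene values was not tested.

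Of 16 further clock genes, 15 had a row in the Spalax table and 16 in that of mouse. In Spalax tumors 4 of 14 tested were called lower and 3 higher, beside 25.9% and 25.5% of all genes, and in mouse 4 of 15 lower and 1 higher, beside 22.3% and 22.8%. In Spalax, Hlf and Usp2 among the lower passed the level filter through UIS alone, and Npas2 among the higher through IS alone. Usp2 was 3739.6 to 7887 in Spalax UIS and 3.07 to 118 in IS, a difference of -7.90 on the log2(value + 1) scale (SE 0.95, limma adjusted p = 0.000301). Its IS values of 3.07 and 9.67 lay below the level filter of 10, from as few as 5 reads. Single animals ran from -6.06 to -10.54, so the size of this difference is uncertain. In mouse it was 2131 to 6243 against 77.5 to 348, a difference of -4.48 (SE 0.65, limma adjusted p = 0.00371).

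**Figure D5:**
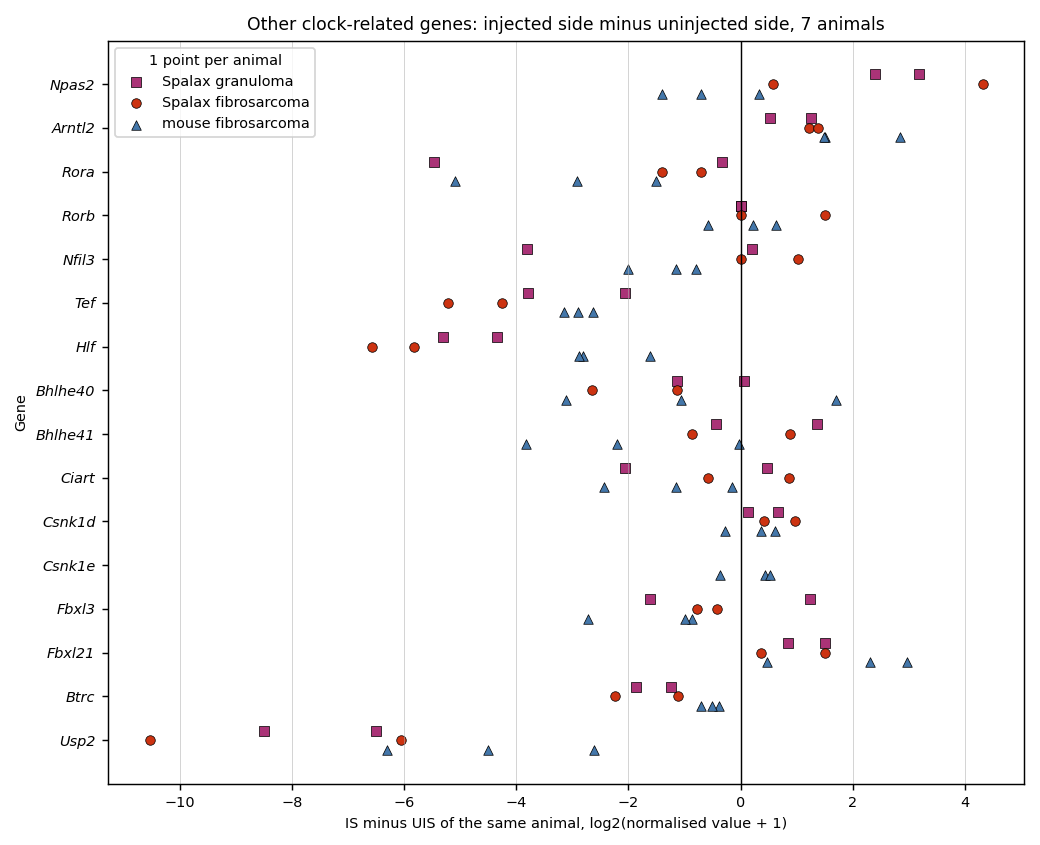
Difference between IS and UIS of the same animal on the log2(normalised value + 1) scale for 16 further clock genes, 1 point per animal (Csnk1e in mouse only). Usp2, Hlf, Tef, Rora and Btrc lie left of 0 in all 7 animals (Rora in 5 and Btrc in 4 with scaling to total reads), and Arntl2 and Fbxl21 right of 0 in all 7.

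Tef and Hlf, the transcription factors related to Dbp, were called lower as well. Tef was 2179 to 7796 in Spalax UIS and 183 to 521 in IS (-3.83, SE 0.47, limma adjusted p = 0.000327), and 5609 to 11028 against 902 to 1243 in mouse (-2.89, SE 0.31, limma adjusted p = 0.00186). Hlf was 107 to 158 in Spalax UIS and 0.600 to 4.36 in IS, from as little as 1 read. All its IS values lay below the level filter of 10, so that UIS alone let it pass. It was called lower (limma adjusted p = 6.49e-05), a direction that this filter favoured. With IS values this low the size of its difference depends on the pseudocount. In mouse Hlf changed by -2.44 (SE 0.81, limma adjusted p = 0.0478), which was not called by edgeR. Rora fell in mouse (-3.18, SE 0.76, limma adjusted p = 0.0170). Arntl2, a paralog of Arntl, was higher in tumors of all 7 animals, by 1.09 (SE 0.37, limma adjusted p = 0.0357) in Spalax and 1.95 (SE 0.50, limma adjusted p = 0.0212) in mouse, at 109 to 187 and 384 to 552 in IS. When 1 library at a time was left out, Arntl2 was called in 2 of 8 Spalax fits and 4 of 6 mouse fits, mouse Hlf in 1 of 6 and mouse Rora in 5 of 6 (not without IS 1019). Npas2, a paralog of Clock, was 4.26 to 18.1 in Spalax UIS and 18.4 to 173 in IS and was called higher (2.62, SE 0.71, limma adjusted p = 0.0146), with all 4 IS but 2 of 4 UIS libraries at or above the level filter of 10, so that IS alone let it pass. Its mouse difference was -0.59 (SE 0.78, limma adjusted p = 0.563) and turned to 0.42 with scaling to total reads.

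Among the kinase and ubiquitin ligase genes that set the stability of the PER and CRY proteins, Csnk1d was called higher (0.55, SE 0.19, limma adjusted p = 0.0416) and Btrc lower (-1.62, SE 0.30, limma adjusted p = 0.00247) in Spalax tumors, and neither was called in mouse (0.24 and -0.54, limma adjusted p of 0.517 and 0.123), where Btrc turned to 0.53 with scaling to total reads. The Spalax Csnk1d call held in 1 of 8 fits that left out a library, and that of Btrc in 8 of 8. In muscle, 0 of these further genes were called by limma in any comparison of UIS, tolerant and control libraries of either species. Usp2 and Tef in tolerant 2251 stood at 1482 and 1717, the lowest of the 12 Spalax muscle libraries.

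Across species the levels can be set side by side only after joint scaling over 14769 genes shared by symbol, on different gene models, so these values are a description. In control muscle Cry1 was 70.0 ± 5.62 CPM (counts scaled to a common library total) in Spalax (SD, n = 4) and 30.9 ± 1.87 in mouse (SD, n = 3). Nr1d2 was 131 ± 33.5 and 315 ± 57.8, Clock 18.8 ± 10.9 and 50.6 ± 21.7, and Arntl 12.6 ± 8.59 and 9.63 ± 8.30. In tumors Dbp was 11.8 ± 1.83 in Spalax (SD, n = 4) and 2.20 ± 0.949 in mouse (SD, n = 3), Nr1d1 12.9 ± 4.76 and 13.6 ± 3.31, and Per2 12.2 ± 2.38 and 8.47 ± 3.32.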

How the data were processed

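Per the labels and the study's methods, single reads of 101 cycles from stranded libraries were trimmed and aligned, mouse to GRCm38 (the submitters' notes name TopHat 1.4.1, HTSeq and DESeq), and counted per gene. The deposited values are a signal that the authors made by dividing each count by 1 size factor per library. Whole reads were recovered from all values above 0. Columns were matched to samples by their labels.

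The 10 genes and all lists were chosen with earlier results of these data known, by name, and genes most like Arntl or Dbp by Pearson r. A gene was tested where its value reached 10 in enough libraries to fill the smaller group, by a fit with limma 3.58.1 (R 4.3.3) on log2(value + 1), with mean-dependent prior variance, and called when the p adjusted by Benjamini-Hochberg over all genes reached 0.05 or less. Alternatives were edgeR 4.0.16 and DESeq2 1.42.0 on recovered reads, scaling to total reads, a pseudocount of 0.1, no filter, 1 model over all libraries of a species, the animal as a replicate block, and leaving out each library. Correlations used exact permutation, or 100000 permutations above 9 libraries, two-sided. The procedure was tested on simulated data. A gene of the list of further clock genes is not reported here.

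UIS and IS libraries pair by animal number in the labels. Departures from the group mean, compared over all genes between both libraries of an animal, correlated at 0.01 in granuloma, -0.00 in Spalax fibrosarcoma and 0.05 to 0.18 in mouse.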

Additional observations from a re-analysis of the deposited data

Results flagged for a closer look

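In groups of 4 Spalax libraries, 6 of 36 sets of clock gene values had 1 library far from the other 3 by Dixon's criterion. The criterion was applied to normalised values without taking logs, unlike the limma fits. Chance meets it in about 1 in 20 groups only where values are independent and normally distributed. Clock genes of the same library are not independent, and the UIS and IS groups pool granuloma and fibrosarcoma animals. The 6 values set apart are therefore a description, and an excess over chance cannot be read from them. Among UIS libraries these were Arntl at 7234 and Cry2 at 7154 in granuloma animal 976, Per1 at 1507 in granuloma animal 600, the lowest of its group, and Clock at 178 in fibrosarcoma animal 2230, also the lowest. Nr1d1 at 1523 in control animal 1075 and Arntl at 1360.4 in the fibrosarcoma of animal 2240 were the highest of theirs.

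The change of Arntl between IS and UIS had opposite signs in the tumor types of Spalax. Its mean was -3.02 in granuloma, lower in 2 of 2 animals, and 2.76 in fibrosarcoma, higher in 2 of 2. The difference of 5.78 (SE 1.84) was not called by limma (adjusted p = 0.946) and was called by DESeq2 (7.22, adjusted p = 0.00273). Without UIS 976 it was 3.85 by limma. The share of all genes with such opposite signs was not counted.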

How the results depend on the processing

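Of 19 clock gene calls, 0 turned direction, 6 were lost under some setting other than leaving out a library and 9 when 1 library was left out. Granuloma calls among the clock genes numbered 2, but 5 with DESeq2, 1 with total reads scaling, 4 with the replicate block, 5 with 1 model over all libraries, and 0 to 3 with 1 library left out, where over all genes total reads scaling called 4509 and the replicate block 3108 of 14735. Fibrosarcoma calls ranged from 0 to 8 with 1 library left out. DESeq2 called 1 (Arntl) in mouse UIS against control and 1 in each interaction, and gave no adjusted p for Arntl in Spalax UIS against control or tolerant or for Cry2 in mouse UIS against control.

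Over all genes DESeq2 called 516 (UIS against control), 60 (tolerant against control), 38 (UIS against tolerant), 5383 (granuloma), 342 (mouse UIS against control), 1899 (interaction of species) and 88 (of tumor types), where limma called 0, 0, 1, 3581, 0, 583 and 0. A single model called 1, 1 and, in granuloma, 6314. UIS against tolerant gave 2 with total reads scaling, 0 with the smaller pseudocount and 3 without the filter, and tolerant against control 2 without it. The replicate block gave 97 for the interaction of species. Leaving out 1 library gave 0 to 1 (UIS against tolerant), 98 to 2882 (granuloma), 0 to 8397 (fibrosarcoma, 5339 with all), 4238 to 7023 (mouse IS, 6870 with all), 10 to 984 and 0 to 4 (interactions). With 2 libraries a group, this leaves a lone library assumed to vary like the other group.

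Arntl in UIS against control was 1.08, from -0.33 (without 976) to 1.93 with 1 library left out, and 3.19 by edgeR and 3.21 by DESeq2, and in mouse IS against UIS turned to 0.11 with total reads scaling, as did Cry1 (0.53), Btrc (0.53) and Npas2 (0.42). Npas2 there ranged from -1.10 to 0.01 (without UIS 1023) with 1 library left out. Correlations with Arntl that turned without the 2 farthest libraries were Cry2 in Spalax (-0.33) and Per1 (-0.97), Cry2 (-0.90) and Nr1d1 (-0.50) in mouse. In tolerant muscle 5 genes exceeded the median SD with total reads scaling. The causes were not tested.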
